A study of Rattus norvegicus with 8 samples.

Results

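The diet by leptin interaction asks, gene by gene, whether the leptin difference in hypothalamic expression of young rats depended on what their mothers ate. It was taken as the leptin difference in offspring of calorie-restricted mothers (CR-l minus CR-s) minus the leptin difference in offspring of normally fed mothers (Con-l minus Con-s), on the log2 scale. All 8 arrays of the series and all 14506 genes with a probe set of their own symbol entered it. A positive interaction means that leptin-treated animals stood higher relative to saline-treated animals under restriction than under the normal diet, and an interaction of 1 is a 2-fold difference between the leptin ratios.

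Female Sprague-Dawley rats gave hypothalamic tissue at 21 days of age, and its RNA was hybridised to Affymetrix Rat Gene 1.0 arrays, with 2 arrays in each of 4 groups (replicates A and B). CR-l and CR-s offspring had mothers whose calories were cut by 50% from gestation day 11 to day 21 and also after birth, and leptin or saline was given from postnatal day 2 to day 8. Con-l and Con-s offspring had normally fed mothers and the same leptin or saline schedule. The design note writes Con-l as Con-r, the source labels leave unclear whether mothers or pups were treated, and no label says whether a sample pooled animals or litters, so p-values measure only the spread between these 8 samples.

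Leptin is a hormone of fat cells that reports energy stores to the brain. In the adult hypothalamus it restrains neurons that make neuropeptide Y and agouti-related peptide, which drive feeding, and activates neurons that make pro-opiomelanocortin, whose products curb it. In newborn rodents a natural surge of leptin falls in the days when arcuate neurons send out their projections, and in leptin-deficient mice leptin given then restores part of that wiring.

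The tissue label was checked against hypothalamic peptide genes. Oxt and Pmch lay at the 97th level percentile of all genes, Avp at the 90th, Hcrt at the 85th, Agrp at the 57th and Pomc at the 32nd, so all but Pomc were brighter than the median gene. Median intensities of the 8 arrays ran from 111.8 to 114.1. CR-s replicate B stood apart from the other arrays, with the narrowest interquartile range (2.92 log2 units, against 3.01 to 3.08 on the others) and a score of 13.97 on the second principal component, where the others lay between -5.37 and 2.88. Values without this array are given below beside the group medians over 0.05 in size and the named interactions over 0.1 in size that moved by over 1.5 times without it.

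No gene of 14506 passed an adjusted p of 0.05 for the interaction (limma with Benjamini-Hochberg adjustment, 0% called), and 747 genes, 5.15% of those tested, had an unadjusted p under 0.05. Of these 747 genes, 351 (2.42% of all genes) had a positive and 396 (2.73%) a negative interaction. The number that a uniform spread of p-values would give is 725.3. The count was 682 without CR-s replicate B and 1126 without CR-s replicate A. The smallest adjusted p was 0.278, for the olfactory receptor gene Or5b104, and the other 746 genes at an unadjusted p under 0.05 shared an adjusted p of 0.898, which therefore applies to every other interaction below whose 95% confidence interval (CI, for the single gene and not adjusted) leaves out zero. The genes and groups that follow are described by their measured values, and none of them is shown to differ.

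The interactions were small beside their error. The median size over all genes was 0.09 log2 units and the median standard error 0.12, which gives a typical 95% confidence interval of 0.27 on either side of the estimate. An interaction of at least 1.5-fold was measured for 79 genes (0.545%), of which 24 (0.165%) were positive and 55 (0.379%) negative. Only 11 of the 79 were brighter than the median gene, which lay at 7.45 (0.152% of the brighter genes), and 68 were dimmer (0.938% of the dimmer genes). Olfactory receptor genes, normally expressed in the nose, made up 21 of the 79 (26.6%, against 7.62% of all genes tested), and 14 of those 21 were negative.

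The interaction can be taken from the A arrays alone and again from the B arrays alone, which share no array. Across genes these estimates had a correlation of 0.01, with 52.6% of genes on the same side of zero. The correlation was 0.15 among the genes brighter than the median and -0.04 among the dimmer ones. Genes are not independent replicates and all arrays were normalized together, so these figures are a description.

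The leptin differences themselves also showed little relation between the diets, with a correlation of 0.02 across genes between arrays that the diets do not share. Leptin differences of opposite sign in the 2 diets were found for 701 of the 747 genes at an unadjusted p under 0.05 (93.8%), against 49.6% of all genes. That share follows in part from the contrast, which is largest where the leptin differences oppose each other. For 2697 genes (18.6%), every difference between a CR-l and a CR-s array lay on one side of every difference between a Con-l and a Con-s array, 1540 (10.6%) above and 1157 (7.98%) below. For 909 genes (6.27%), the leptin-treated and saline-treated arrays did not overlap in either diet and leptin stood on opposite sides, with a positive interaction for 526 (3.63%) and a negative one for 383 (2.64%).

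**Figure D1:**
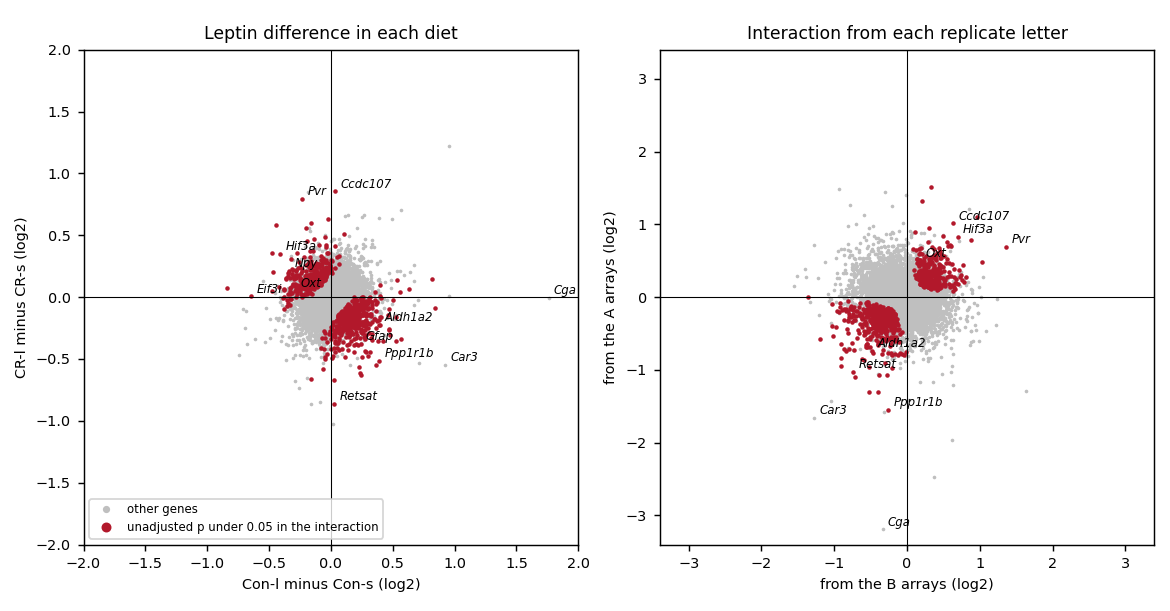
Left, the leptin difference under calorie restriction (CR-l minus CR-s) against that under the normal diet (Con-l minus Con-s), in log2 units; right, the interaction from the A arrays (vertical) against that from the B arrays (horizontal). Each point is a gene, red where the unadjusted p of the interaction is under 0.05, and neither cloud runs along a diagonal, with correlations of 0.02 and 0.01.

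Of the 16 energy-balance genes, 15 were measured; the leptin receptor gene Lepr was not analysed here. In 11 of the 15 the interaction was positive, with a median of 0.09 against 0.01 for all genes. Positive interactions made up 52.5% of all genes, 61.3% of the genes brighter than the median and 43.8% of the dimmer ones, which is the background for each count of positive or negative members below. The background for each count of members at an unadjusted p under 0.05 is 2.42% positive and 2.73% negative over all genes. It is 2.56% and 1.16% over the brighter genes, and 2.27% and 4.3% over the dimmer ones. Npy and Oxt were the 2 members with an unadjusted p under 0.05. With 1 array left out the median ran from -0.01 without Con-s replicate A to 0.17 without Con-s replicate B.

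Npy encodes neuropeptide Y, the strong feeding signal of arcuate neurons. Its log2 level was 10.24 and 9.90 on the CR-l arrays and 9.95 and 9.76 on the CR-s arrays, against 9.11 and 8.97 on the Con-l arrays and 9.50 and 9.27 on the Con-s arrays. The CR-l and CR-s arrays overlapped, while both Con-l arrays lay below both Con-s arrays. The leptin difference was 0.21 under restriction and -0.34 under the normal diet, an interaction of 0.55 ± 0.19 (SE, 95% CI 0.11 to 1.00). It was 0.46 without CR-s replicate B and stayed between 0.39 and 0.72 when any 1 array was left out.

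Agrp, made by the same arcuate neurons as Npy, gave an interaction near zero. It stood at 8.33 and 7.94 on the CR-l arrays and 8.17 and 8.29 on the CR-s arrays, against 7.53 and 7.37 on the Con-l arrays and 7.54 and 7.50 on the Con-s arrays. Leptin and saline arrays overlapped in both diets. The interaction was -0.03 ± 0.18 (SE), with a CI of -0.45 to 0.40, and whether it differed from that of Npy was not tested.

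Oxt encodes oxytocin, a magnocellular hormone that also reduces feeding. It was at 11.04 and 11.10 on the CR-l arrays and 10.96 and 11.08 on the CR-s arrays, against 11.28 and 11.29 on the Con-l arrays and 11.70 and 11.45 on the Con-s arrays. As for Npy, the restricted groups overlapped and Con-l lay below Con-s. The leptin difference was 0.05 under restriction and -0.29 under the normal diet, an interaction of 0.34 ± 0.13 (SE, 95% CI 0.03 to 0.65), and 0.22 without Con-s replicate A. Avp, the vasopressin gene of neighbouring magnocellular neurons, had an interaction of 0.28 ± 0.17 (SE, 95% CI -0.13 to 0.68), and 0.18 without CR-s replicate B.

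The peptides that leptin acts through to curb feeding showed smaller estimates. Pomc, the precursor of melanocortins, was at 6.22 and 6.21 on the CR-l arrays and 6.26 and 6.34 on the CR-s arrays, against 6.43 and 6.31 on the Con-l arrays and 6.58 and 6.45 on the Con-s arrays. Both leptin groups lay below their saline groups, and the interaction was 0.06 (95% CI -0.19 to 0.30). Cartpt, which encodes the CART peptide of the same neurons, had an interaction of 0.03 (95% CI -0.25 to 0.31). Crh, Trh and Bdnf, whose products also reduce feeding, had interactions of 0.02, -0.02 and -0.02.

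The lateral hypothalamic peptides Hcrt (orexin) and Pmch (melanin-concentrating hormone), which promote arousal and feeding, had interactions of 0.15 and 0.12. Socs3, the feedback inhibitor that leptin induces, was at -0.07 (95% CI -0.42 to 0.28). Stat3, which carries the leptin receptor signal to the nucleus, was at 9.14 and 9.23 on the CR-l arrays and 9.05 and 9.12 on the CR-s arrays, against 9.26 and 9.15 on the Con-l arrays and 9.28 and 9.27 on the Con-s arrays. Leptin arrays lay above saline arrays under restriction and below them under the normal diet, and the interaction was 0.17 ± 0.09 (SE, 95% CI -0.05 to 0.39). Among the melanocortin receptors, Mc3r was at 0.39 ± 0.20 (SE, 95% CI -0.09 to 0.86) and Mc4r at 0.09 ± 0.27 (SE, 95% CI -0.56 to 0.73).

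**Figure D2:**
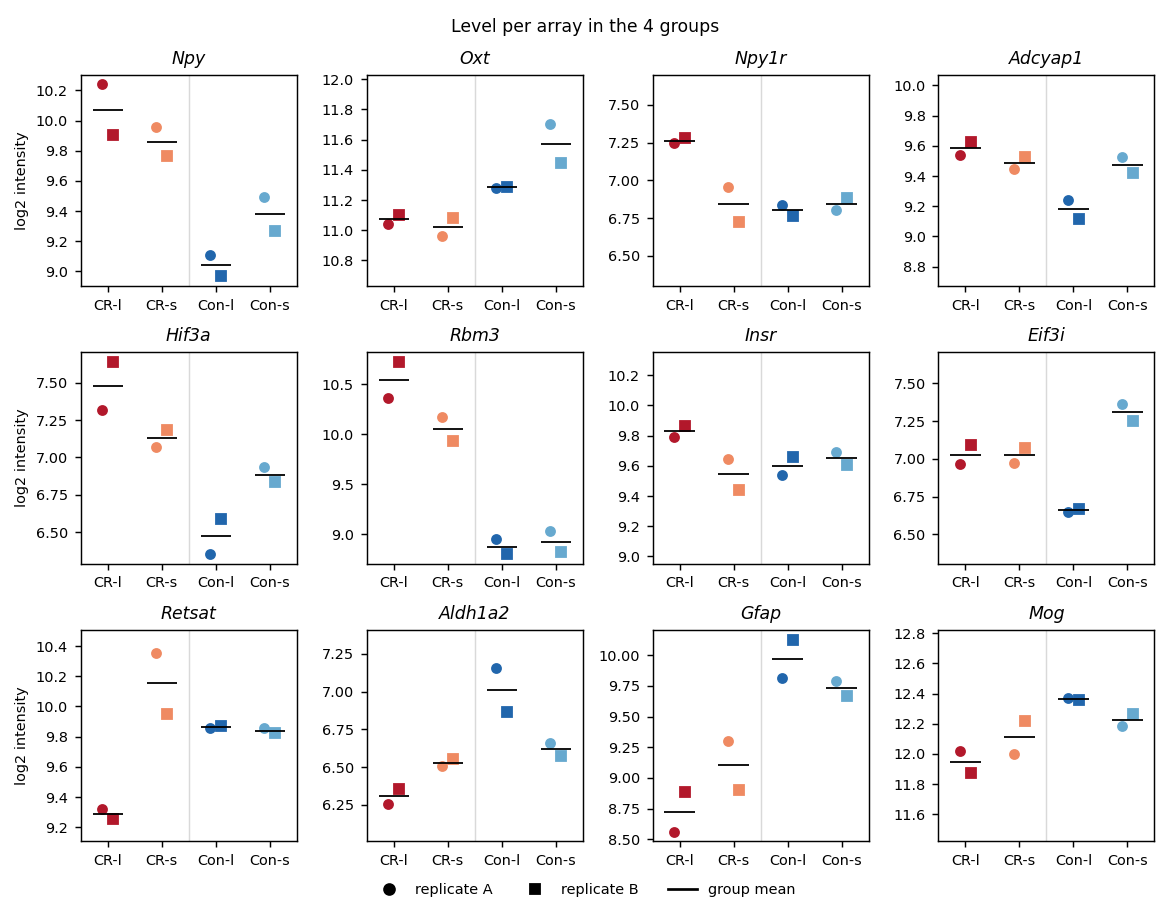
Log2 intensity of named genes on each array, in the order CR-l, CR-s, Con-l, Con-s; each point is an array and each bar a group mean of 2 arrays. Npy shows overlapping CR-l and CR-s arrays with Con-l below Con-s, and Retsat shows CR-l below CR-s with Con-l and Con-s together.

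Receptors for feeding and metabolic peptides had the highest median of the 50 gene groups described, 0.17, with 12 of 15 members positive, 2 of them at an unadjusted p under 0.05. The median was 0.09 without CR-s replicate B, and with 1 array left out it ran from 0.06 without Con-s replicate A to 0.27 without Con-l replicate A. Npy1r, a receptor through which neuropeptide Y stimulates feeding, was at 7.25 and 7.28 on the CR-l arrays and 6.96 and 6.72 on the CR-s arrays, against 6.84 and 6.76 on the Con-l arrays and 6.81 and 6.89 on the Con-s arrays. The CR-l arrays lay above the other 6, which overlapped. The interaction was 0.46 ± 0.12 (SE, 95% CI 0.18 to 0.75), and 0.35 without CR-s replicate B. Insr, the insulin receptor gene, was at 9.79 and 9.86 on the CR-l arrays and 9.65 and 9.44 on the CR-s arrays, against 9.54 and 9.66 on the Con-l arrays and 9.69 and 9.61 on the Con-s arrays, an interaction of 0.34 ± 0.12 (SE, 95% CI 0.05 to 0.62). Insr, too, was highest on the CR-l arrays, its interaction was 0.23 without CR-s replicate B, and a dimmer second probe set gave 0.17.

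Of a group drawn up for peptides that raise food intake, 8 of 15 were positive (median 0.02). That group also holds Nts and Nmu, whose peptides reduce feeding. Of a group drawn up for peptides that lower food intake, 9 of 16 were positive (median 0.03). The latter includes the receptor gene Glp1r and Nxph4, so neither count covers feeding peptides of 1 direction only. The first median ran from -0.04 without Con-s replicate A to 0.13 without Con-s replicate B. Adcyap1, which encodes the peptide PACAP and is expressed in the ventromedial hypothalamus, was at 9.54 and 9.63 on the CR-l arrays and 9.44 and 9.52 on the CR-s arrays, against 9.24 and 9.12 on the Con-l arrays and 9.53 and 9.42 on the Con-s arrays. Con-l was the group that stood below the rest, and the interaction was 0.40 ± 0.11 (SE, 95% CI 0.15 to 0.64). Transcription factors that specify hypothalamic neurons were positive in 17 of 24 cases (median 0.10, from 0.05 without CR-l replicate B to 0.13 without CR-s replicate B). Among them were Sim1 of the paraventricular nucleus at 0.28, Lhx1 of the suprachiasmatic nucleus at 0.27 and Fezf1 of the ventromedial nucleus at 0.35, all at an unadjusted p under 0.05, with Fezf1 at 0.23 without CR-l replicate B. Leptin signalling and feedback genes were positive in 10 of 18 cases (median 0.04) with none at an unadjusted p under 0.05.

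Among 21 genes of a glucocorticoid group, 15 were positive with a median of 0.15. The group holds genes that glucocorticoids induce together with the receptor genes Nr3c1 and Nr3c2. The median was 0.08 without CR-s replicate B, and with 1 array left out it ran from 0.03 without Con-l replicate B to 0.22 without Con-l replicate A. Hif3a, a hypoxia-inducible factor subunit that glucocorticoids raise in several tissues, was at 7.32 and 7.64 on the CR-l arrays and 7.07 and 7.18 on the CR-s arrays, against 6.35 and 6.59 on the Con-l arrays and 6.94 and 6.83 on the Con-s arrays. Leptin arrays stood above saline arrays under restriction and below them under the normal diet, and the interaction was 0.76 ± 0.17 (SE, 95% CI 0.35 to 1.17), between 0.60 and 0.92 when any 1 array was left out. Genes of thyroid hormone transport and response were positive in 8 of 15 cases, with a median of 0.06 that was 0.04 without CR-s replicate B and ran from -0.05 without Con-l replicate B to 0.10 without Con-l replicate A. Klf9, a transcription factor on both lists that glucocorticoid and thyroid hormone induce, was at 0.29 ± 0.11 (SE, 95% CI 0.04 to 0.55), and Per1, a clock gene with a glucocorticoid response, at 0.23 ± 0.10 (SE, 95% CI -0.01 to 0.48). Fkbp5, a commonly used glucocorticoid readout that was picked after its values were seen, was at 0.04 ± 0.18 (SE).

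Growth hormone and IGF axis genes were positive in 13 of 19 cases, with a median of 0.10 and 4 members at an unadjusted p under 0.05, all positive. Over all genes 2.42% were positive at that p, and 2.56% of the brighter ones. The 4 members were Insr, Igfbp6 (0.41 ± 0.16, SE), Igfbp5 (0.40 ± 0.16, SE) and the growth hormone receptor gene Ghr (0.25 ± 0.10, SE). Igfbp5, a binding protein for insulin-like growth factors, was at 9.12 and 9.04 on the CR-l arrays and 8.88 and 8.56 on the CR-s arrays, against 9.29 and 9.24 on the Con-l arrays and 9.19 and 9.41 on the Con-s arrays. The restricted groups were apart and the control groups overlapped, and the interaction was 0.24 without CR-s replicate B. Igf1 was at 0.41 ± 0.27 (SE, 95% CI -0.23 to 1.05), and 0.25 without CR-s replicate B.

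A group drawn up for cold-inducible and metallothionein genes had a median of 0.16, with 5 of 7 positive. That group also holds the splicing genes Rbm5 and Sf3b1, so its count and median do not cover those kinds alone. The median was -0.09 on the A arrays and 0.33 on the B arrays, 0.08 without CR-s replicate B, and with 1 array left out it ran from 0.05 without CR-l replicate B to 0.28 without CR-l replicate A. Rbm3, an RNA-binding protein gene induced by cooling, was at 10.37 and 10.72 on the CR-l arrays and 10.17 and 9.94 on the CR-s arrays, against 8.95 and 8.80 on the Con-l arrays and 9.03 and 8.82 on the Con-s arrays. CR-l lay above CR-s without overlap, the control groups overlapped, and the interaction was 0.54 ± 0.20 (SE, 95% CI 0.07 to 1.01), or 0.42 without CR-s replicate B. Mt2A, a metallothionein gene that binds zinc, was at 0.53 ± 0.25 (SE, 95% CI -0.06 to 1.12), and 2 probe sets for it gave 0.53 and 0.45.

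Genes of translation initiation were positive in 17 of 20 cases, with a median of 0.09 and 2 members at an unadjusted p under 0.05. Without CR-s replicate B the median was 0.05. Eif3i, a subunit of the initiation factor that brings messenger RNA to the small ribosomal subunit, was at 6.97 and 7.09 on the CR-l arrays and 6.97 and 7.07 on the CR-s arrays, against 6.65 and 6.67 on the Con-l arrays and 7.36 and 7.25 on the Con-s arrays. Its leptin difference was 0.01 under restriction and -0.65 under the normal diet, and the interaction was 0.65 ± 0.10 (SE, 95% CI 0.41 to 0.90). Eif1ax, a factor for start codon scanning, was at 0.27 ± 0.10 (SE, 95% CI 0.03 to 0.52).

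Among genes brighter than the median, 5 (0.0689%) had a positive interaction of at least 1.5-fold, and Ccdc107 was the only one of them at an unadjusted p under 0.05. Ccdc107, which encodes a coiled-coil protein, was at 10.80 and 10.87 on the CR-l arrays and 9.74 and 10.23 on the CR-s arrays, against 10.31 and 10.17 on the Con-l arrays and 10.25 and 10.16 on the Con-s arrays. The CR-l arrays lay above all others, and the interaction was 0.82 ± 0.21 (SE, 95% CI 0.33 to 1.32). The other 4 were Prps1 (0.68), Nmbr (0.64), Nt5c3a (0.74) and Chchd5 (0.61), each with an interval that held zero. Of these, Chchd5 was at -0.02 on the A arrays and 1.24 on the B arrays, and without CR-s replicate B Chchd5 was at 0.31 and Nt5c3a at 0.49.

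Pvr, a cell adhesion receptor gene dimmer than the median, was at 7.41 and 7.67 on the CR-l arrays and 6.78 and 6.72 on the CR-s arrays, against 7.75 and 7.39 on the Con-l arrays and 7.81 and 7.80 on the Con-s arrays. Leptin arrays were higher under restriction and lower under the normal diet, and the interaction was 1.03 ± 0.18 (SE, 95% CI 0.60 to 1.46). Or5b104 had the same size of interaction, 1.03 ± 0.10 (SE), from levels of only 3.11 and 3.10 on the CR-l arrays and 2.58 and 2.48 on the CR-s arrays, against 2.33 and 2.48 on the Con-l arrays and 2.89 and 2.82 on the Con-s arrays. These levels are near the bottom of the array's scale, as are those of Or1o11, an olfactory receptor gene with an interaction of -0.92 ± 0.17 (SE, 95% CI -1.33 to -0.52).

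Some genes of retinoid handling had negative interactions, while the group as a whole was near the background. Of 21 retinoid genes, 4 had an unadjusted p under 0.05 and all 4 were negative, while the group median was -0.08 and 9 members were positive. With a median level of 7.14 the group lies among the dimmer genes, and 42.9% of it was positive, against 43.8% of those. Negative calls at that p made up 2.73% of all genes and 4.3% of the dimmer ones. The median ran from -0.12 without Con-l replicate B to -0.03 without Con-l replicate A. Retsat, the enzyme that saturates retinol, was at 9.32 and 9.26 on the CR-l arrays and 10.35 and 9.95 on the CR-s arrays, against 9.86 and 9.87 on the Con-l arrays and 9.86 and 9.82 on the Con-s arrays. Leptin arrays were lower under restriction, while the 4 control arrays lay within a narrow band between the restricted groups. The interaction was -0.89 ± 0.17 (SE, 95% CI -1.29 to -0.49), -1.09 without CR-s replicate B and -0.68 at its smallest when another array was left out.

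Aldh1a2, which makes retinoic acid and marks meningeal cells in the brain, was at 6.26 and 6.35 on the CR-l arrays and 6.51 and 6.55 on the CR-s arrays, against 7.16 and 6.86 on the Con-l arrays and 6.66 and 6.58 on the Con-s arrays. Leptin arrays lay below saline arrays under restriction and above them under the normal diet, an interaction of -0.61 ± 0.14 (SE, 95% CI -0.95 to -0.28). Stra6, the membrane receptor that takes up retinol, was at -0.29 ± 0.09 (SE, 95% CI -0.49 to -0.08), and the retinol dehydrogenase gene Rdh10 at -0.23 ± 0.09 (SE). The 19 meningeal marker genes together had a median of -0.10 with 16 negative, which was -0.05 without CR-s replicate B and ran from -0.20 without Con-l replicate B to 0.07 without Con-l replicate A. Their summed intensity was 4340 and 4845 on the CR-l arrays and 4590 and 4379 on the CR-s arrays, against 9469 and 7233 on the Con-l arrays and 7815 and 7638 on the Con-s arrays. Con-l replicate A held the highest sum, and the part of meningeal RNA in the Aldh1a2 value was not tested.

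Of 24 genes of myelin and mature oligodendrocytes, the cells that insulate axons, 22 were negative, with a median of -0.15, and 2 of them had an unadjusted p under 0.05. Under restriction 19 of the 24 were lower with leptin, and under the normal diet 21 were higher. The same counts were 6812 and 7205 over all 14506 genes, and 2602 and 3568 over the 7253 brighter genes. Mog, a myelin surface protein gene, averaged 11.95 ± 0.11 on the CR-l arrays and 12.11 ± 0.15 on the CR-s arrays, against 12.36 ± 0.01 on the Con-l arrays and 12.22 ± 0.05 on the Con-s arrays (SD, n = 2 each). CR-l and CR-s overlapped and Con-l lay above Con-s, an interaction of -0.30 ± 0.13 (SE, 95% CI -0.60 to -0.01). Enpp2, which makes lysophosphatidic acid and is also a choroid plexus gene, was at -0.28 ± 0.11 (SE, 95% CI -0.54 to -0.02). Without CR-s replicate B the group median was -0.08 and the Mog interaction -0.20, and without Con-s replicate A the median was -0.10. Mbp, the myelin basic protein gene, was at -0.04 ± 0.09 (SE).

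Gfap, the intermediate filament gene of astrocytes, was at 8.56 and 8.89 on the CR-l arrays and 9.30 and 8.90 on the CR-s arrays, against 9.81 and 10.13 on the Con-l arrays and 9.79 and 9.67 on the Con-s arrays. CR-l lay below CR-s and Con-l above Con-s, in both cases with the nearest arrays closer together than the replicates of either leptin group. The interaction was -0.62 ± 0.24 (SE, 95% CI -1.19 to -0.05). Fabp7, a fatty acid binding protein gene of astrocytes and radial glia, was at 8.70 and 8.68 on the CR-l arrays and 8.91 and 8.73 on the CR-s arrays, against 9.35 and 9.27 on the Con-l arrays and 9.14 and 8.96 on the Con-s arrays, an interaction of -0.40 ± 0.12 (SE, 95% CI -0.69 to -0.10). Of 19 astrocyte genes, 16 were negative, with a median of -0.06. That median was -0.02 without CR-s replicate A and -0.09 without CR-s replicate B, and with 1 array left out it ran from -0.09 without CR-l replicate B to -0.02 without CR-l replicate A. The other glial lists did not share the sign, with 5 of 10 oligodendrocyte precursor genes positive (median 0.01) and 12 of 21 microglia and macrophage genes (median 0.02). Fewer cells of a type and less RNA per cell cannot be told apart in these tissue samples.

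Immediate early genes, which neurons switch on within minutes of activity, were negative in 18 of 22 cases (median -0.11), with 3 at an unadjusted p under 0.05. The median ran from -0.17 without CR-s replicate A to -0.06 without CR-l replicate B. Junb was at 7.17 and 7.15 on the CR-l arrays and 7.21 and 7.38 on the CR-s arrays, against 7.32 and 7.43 on the Con-l arrays and 7.10 and 7.20 on the Con-s arrays. CR-l lay below CR-s and Con-l above Con-s, and the interaction was -0.35 ± 0.11 (SE, 95% CI -0.62 to -0.09). Npas4, an activity-dependent transcription factor gene of neurons, was also at -0.35 ± 0.12 (SE, 95% CI -0.63 to -0.08), and the orphan nuclear receptor gene Nr4a1 at -0.31 ± 0.11 (SE, 95% CI -0.57 to -0.05). C1s, a complement protease gene, was at 5.26 and 5.50 on the CR-l arrays and 5.87 and 5.86 on the CR-s arrays, against 6.08 and 6.12 on the Con-l arrays and 6.04 and 5.93 on the Con-s arrays, an interaction of -0.59 ± 0.12 (SE, 95% CI -0.88 to -0.30).

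**Figure D3:**
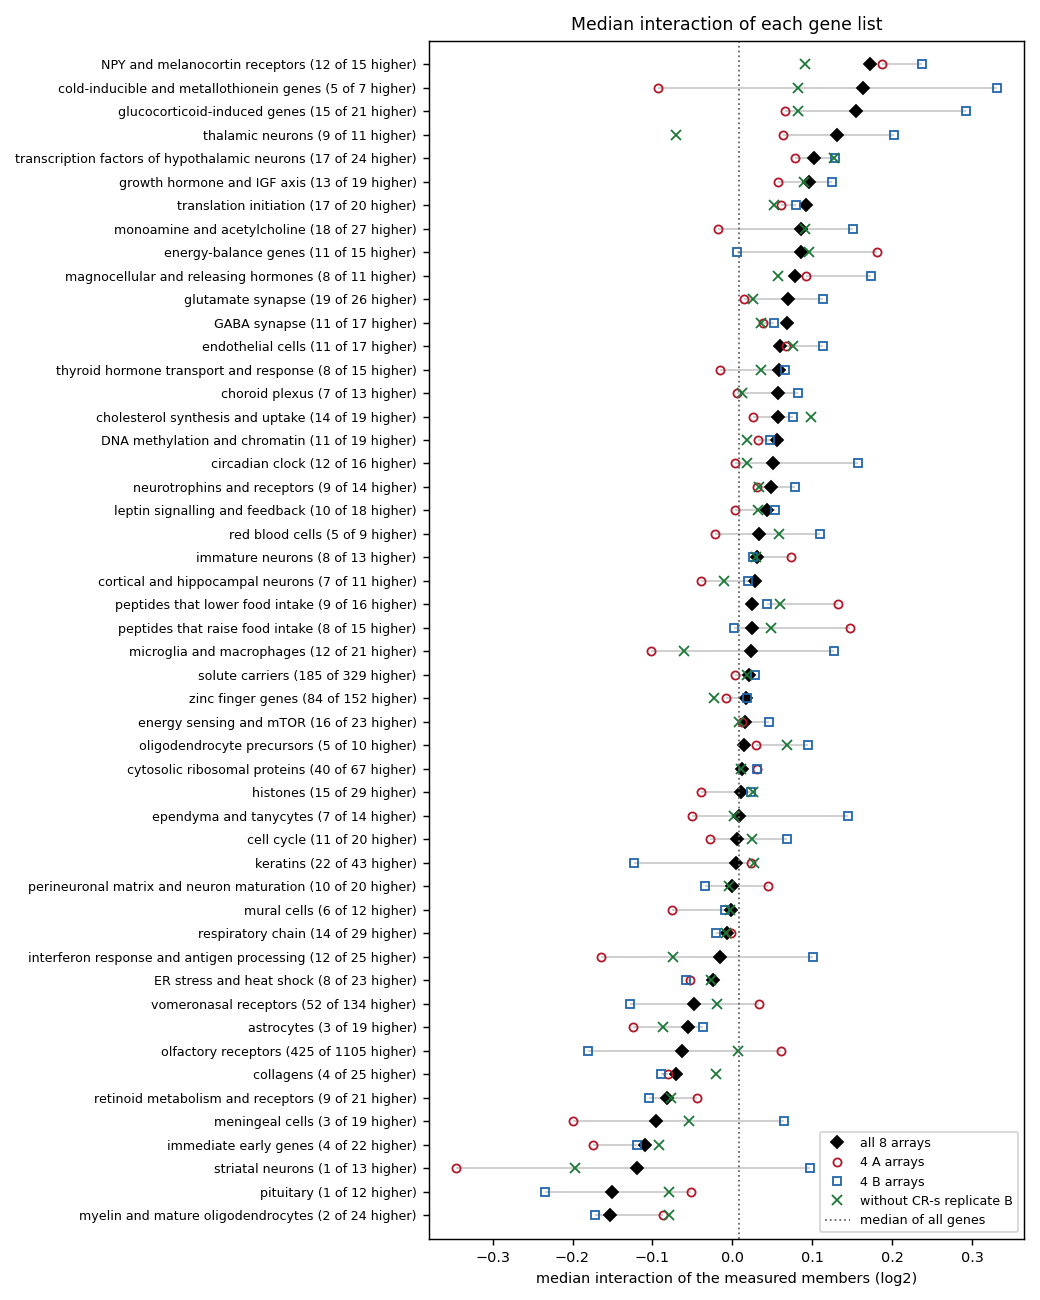
Median interaction (log2 units) of each gene group, with the values from the A arrays alone, from the B arrays alone and without CR-s replicate B, and the median of all genes (0.01) as a dotted line. The medians run from -0.15 for myelin genes to 0.17 for receptors of feeding and metabolic peptides (top row), and in 17 of 50 groups the A and B values lie on opposite sides of zero.

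Some of the most negative single genes differed widely between the A and the B arrays. Ppp1r1b, a signalling gene of striatal projection neurons, was at 7.55 and 7.61 on the CR-l arrays and 8.34 and 7.85 on the CR-s arrays, against 8.56 and 7.80 on the Con-l arrays and 7.81 and 7.78 on the Con-s arrays. Its interaction of -0.90 ± 0.35 (SE, 95% CI -1.72 to -0.08) was -1.55 on the A arrays, -0.26 on the B arrays and -0.52 without Con-l replicate A. Adora2a, the striatal adenosine receptor gene, was likewise at -0.97 and -0.21 on the A and B arrays, and its interaction was -0.59 ± 0.25 (SE, 95% CI -1.18 to -0.0034), or -0.29 without Con-l replicate A and -0.89 without Con-l replicate B.

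The 13 striatal marker genes include Penk and Tac1, which the feeding-peptide groups also hold. They had a median of -0.12, 12 of them negative, which was -0.35 on the A arrays and 0.10 on the B arrays. It was -0.20 without CR-s replicate B and ran from -0.28 without Con-l replicate B to -0.02 without Con-l replicate A. Their summed intensity was 4583 and 4675 on the CR-l arrays and 5017 and 4608 on the CR-s arrays, against 5371 and 4241 on the Con-l arrays and 4442 and 4452 on the Con-s arrays. Con-l replicate A was the highest and CR-s replicate A the second highest, and what part of the Ppp1r1b value moved with striatal tissue in the dissection was not tested. Gng7, a G protein subunit gene that is rich in striatum, was at -0.69 ± 0.33 (SE), with -1.41 and 0.02 on the A and B arrays.

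Cga, the shared subunit gene of pituitary glycoprotein hormones, had the lowest interaction of all genes, and was picked out after its values were seen. It was at 9.19 on Con-l replicate A and between 5.83 and 6.19 on the other 7 arrays, and the interaction was -1.76 ± 1.13 (SE, 95% CI -4.41 to 0.88). The 12 pituitary markers had a median of -0.15 with 11 negative, or -0.08 without CR-s replicate B and -0.10 without CR-l replicate B, and their summed intensity was 807 and 766 on the CR-l arrays and 818 and 835 on the CR-s arrays, against 1306 and 770 on the Con-l arrays and 795 and 738 on the Con-s arrays. These sums include Cga. On Con-l replicate A the median pituitary marker lay -0.00065 log2 units from its mean over the 8 arrays, so the high sum there was not shared by the typical marker. No RMA intensity is 0, so no marker is absent by this measure. Prl and Gh1, hormone genes of the anterior pituitary that were picked after their values were seen, had mean levels of 4.37 and 5.69. They stood at 4.35 and 5.69 on Con-l replicate A. The part of pituitary tissue in the Cga value was not tested. Without Con-l replicate B the control leptin group is Con-l replicate A alone, and Cga then passed with an interaction of -3.26 (SE 0.17, limma adjusted p = 0.015).

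Car3, a carbonic anhydrase gene of muscle and fat, was at 8.37 and 8.63 on the CR-l arrays and 8.48 and 9.61 on the CR-s arrays, against 9.87 and 9.92 on the Con-l arrays and 8.33 and 9.62 on the Con-s arrays. The replicates differed by 1.13 within CR-s and by 1.29 within Con-s, and the interaction was -1.47 ± 0.65 (SE, 95% CI -3.00 to 0.06), or -0.90 without CR-s replicate B. Bmp4, a secreted patterning signal, was at 5.82 and 8.20 on the CR-l arrays and 8.10 and 7.98 on the CR-s arrays, against 8.40 and 8.86 on the Con-l arrays and 8.20 and 9.02 on the Con-s arrays. The interaction of -1.05 ± 0.96 (SE, 95% CI -3.30 to 1.20) was -2.47 on the A arrays and 0.38 on the B arrays. CR-l replicate A was the low array.

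**Figure D4:**
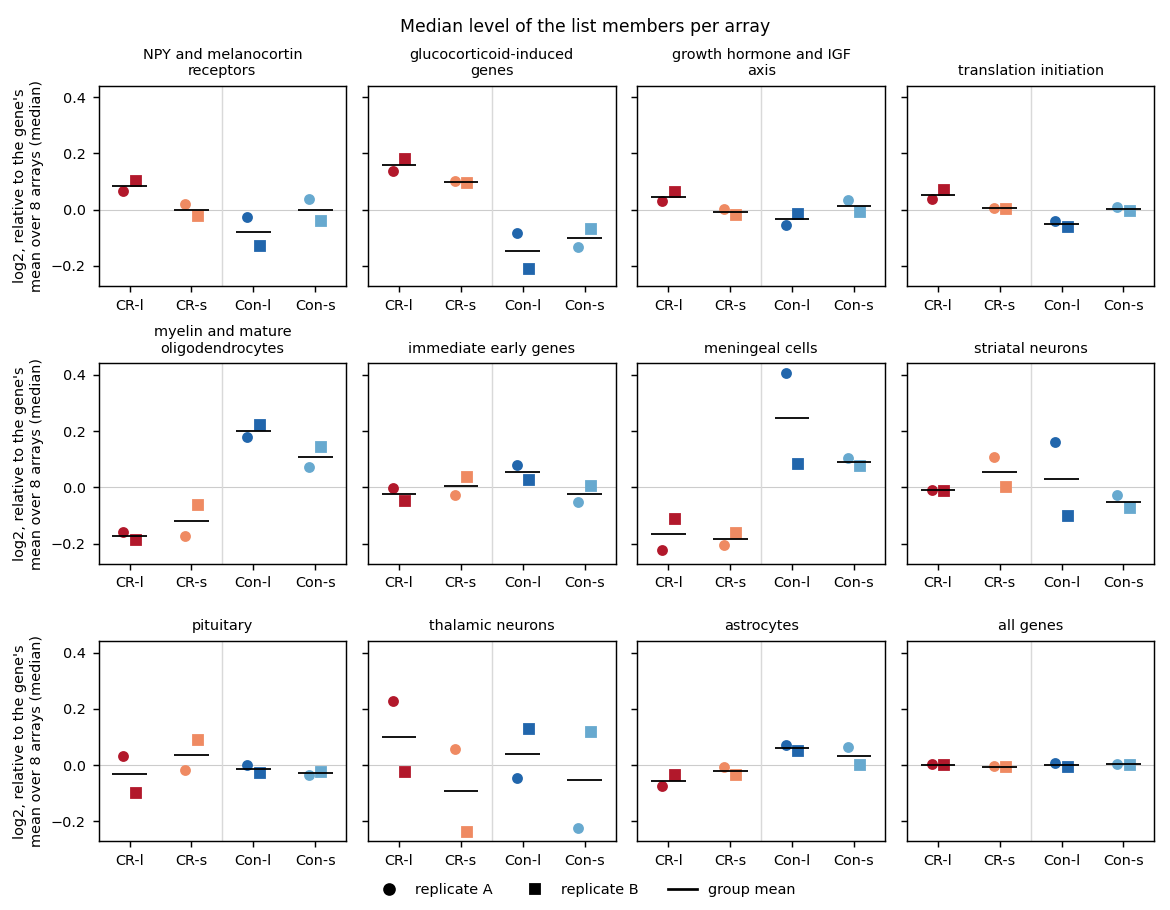
Median level of the members of selected gene groups and of all genes on each array (log2 units, each gene relative to its mean over the 8 arrays), in the order CR-l, CR-s, Con-l, Con-s; each point is an array and each bar a group mean. Con-l replicate A is the highest array for meningeal and striatal markers, and myelin genes are lower on the 4 restricted arrays than on the 4 control arrays.

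Thalamic marker genes, from tissue that borders the hypothalamus, had a median of 0.13 with 9 of 11 positive and none at an unadjusted p under 0.05. They include Slc17a6, which is not confined to the thalamus. The median was -0.07 without CR-s replicate B and ran from -0.10 without Con-s replicate B to 0.31 without Con-s replicate A. Their summed intensity was 12643 and 10140 on the CR-l arrays and 10870 and 9343 on the CR-s arrays, against 10025 and 10922 on the Con-l arrays and 9079 and 11344 on the Con-s arrays, so replicates of 1 group differed as much as groups did. Red blood cell genes had 5 of 9 positive and a median of 0.03 (from -0.12 without Con-s replicate B to 0.18 without Con-s replicate A), with summed intensities of 1513 to 2321 on the restricted arrays and 4024 to 6027 on the control arrays.

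The values of dim genes depended on single arrays, CR-s replicate B among them. The 1105 olfactory receptor genes had a median of -0.06 with 425 positive, against 0.0072 without CR-s replicate B and -0.12 without CR-s replicate A. Their median was -0.02 without Con-l replicate B and -0.11 without Con-l replicate A, and 0.06 on the A arrays against -0.18 on the B arrays. The median interaction was 0.03 over genes brighter than the median gene and -0.02 over the dimmer ones, and 0.00 for both after cyclic loess normalization. By direction, the brighter genes held 186 positive (2.56%) and 84 negative (1.16%) interactions at an unadjusted p under 0.05. The dimmer genes held 165 positive (2.27%) and 312 negative (4.3%).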

How the data were processed

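Hypothalamic RNA of 8 samples was measured on 1 array each. The authors ran RMA in the Affymetrix Expression Console software, per the submitters' processing notes, and deposited intensities per probe set on a linear scale; the software version and genome build are not given in the sources used here. Of 29215 probe sets, 15310 had 1 gene symbol and 323 several, and the brightest probe set of each symbol gave 14506 genes. Intensities were log2-transformed and not normalized again, and dim genes were kept. limma 3.58.1 in R 4.3.3 was fitted with 4 group means over the 8 arrays (4 residual and 3.21 prior degrees of freedom). Tests were two-sided, with Benjamini-Hochberg adjustment over all 14506 genes, and the fit was tested on simulated data.

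Arrays were grouped by their titles. Named genes were the energy-balance genes, those with the smallest unadjusted p among interactions of at least 1.5-fold in the brighter and dimmer genes, and, in each gene group with at least 5 measured members, the 3 or fewer of smallest unadjusted p. Cga, Fkbp5, Ghr, Igf1, Mbp, Prl, Gh1 and Rdh10 were chosen after their values were seen. The comparison and the gene groups were chosen with earlier results of these data known, and the groups are described without a test. The array annotation's symbols were updated through the Entrez gene number for 15279 probe sets.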

Additional observations from a re-analysis of the deposited data

Results flagged for a closer look

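The results here share 1 pattern: both CR-l arrays lay on one side of both CR-s arrays, and both Con-l arrays lay on the opposite side of both Con-s arrays. Over all genes 526 (3.63%) showed it with a positive interaction and 383 (2.64%) with a negative one. The genes listed here are only those named in this report, most of them chosen for a small unadjusted interaction p. Such a choice favours opposed leptin differences, so the kinds of genes listed are no result. The difference between the leptin effects was tested for each gene by limma, and none passed the adjusted threshold.

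With leptin arrays higher under restriction and lower under the normal diet, the signalling genes were Stat3 of the leptin pathway at 0.17, Adcyap1 of the feeding peptides at 0.40, and the muscarinic and histamine receptor genes Chrm3 at 0.27 and Hrh1 at 0.28. The hypothalamic transcription factor genes Lhx1, Sim1 and Fezf1 showed it at 0.27, 0.28 and 0.35. Among genes of hormone response, growth and metabolism it was seen for Hif3a at 0.76, Klf9 at 0.29, Igfbp6 at 0.41, Ghr at 0.25, Hsd17b7 at 0.30, Tef at 0.19, Prkaa2 at 0.27 and Eif1ax at 0.27. Pvr was at 1.03, the kininogen-like gene Kng2l1 at 0.67, and the dim olfactory receptor gene Or5b104 at 1.03.

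With leptin arrays lower under restriction and higher under the normal diet, the glial genes were Gfap at -0.62, Fabp7 at -0.40 and Grm3 at -0.40. The immediate early genes Junb and Npas4 were at -0.35 and -0.35, Pvalb at -0.42, Aldh1a2 at -0.61, Rdh10 at -0.23, Serpinh1 at -0.37, Rgs5 at -0.23 and C1s at -0.59. The dim olfactory receptor genes Or5p59, Or2v2c and Or5b124 were at -0.61, -0.87 and -0.60, and a second probe set of Or5b124 gave 0.14.

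For gene groups the same pattern was seen in the per-array group level and was not tested. It appeared in 3 of the 50 groups, beside 909 of all genes (6.27%) in either direction. These were growth hormone and IGF axis genes (median interaction 0.095), translation initiation genes (0.092) and cell cycle genes, whose median interaction was 0.0063. For the cell cycle genes the median leptin difference of the members was -0.0074 under restriction and -0.0089 under the normal diet, so the members did not share the pattern.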

How the results depend on the processing

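No gene passed the adjusted threshold under quantile normalization, cyclic loess, a trended and robust fit, the brightest 60% of genes, array weights, the mean of a gene's probe sets, all probe sets, or an offset of 16, where 535 to 1392 genes or probe sets had an unadjusted p under 0.05. With 1 array left out at a time, 0 to 1 genes passed and 581 to 1126 had an unadjusted p under 0.05, the highest without CR-s replicate A. The gene was Cga, without Con-l replicate B. A group left with 1 array was taken to vary like the others. Over all 29215 probe sets 1392 had an unadjusted p under 0.05 and 5049 had separated leptin differences. Of the 8703 genes in the brightest 60%, 1790 had separated differences, a larger share than the 18.6% of all genes. These totals depend in part on the number tested. By direction, the unadjusted calls were 493 positive and 341 negative in the trended and robust fit and 384 and 151 in the brightest 60%, against 351 and 396 in the fit reported. Same-letter arrays were not paired by the labels, and their deviations had correlations of -0.06 to 0.11. Whether the letters mark a shared factor was not tested. With the replicate block 841 genes had an unadjusted p under 0.05 and 0 passed.

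When 1 array was left out, the medians of 24 of the 50 gene groups took either sign, most of them with a reported median near zero. Of those whose reported median was over 0.05 in size with the same sign on the A and the B arrays, the energy-balance genes ran from -0.011 to 0.17, thalamic neurons from -0.10 to 0.31 and choroid plexus from -0.060 to 0.039; the cause was not tested. Of the gene results under the alternatives, 3074 stayed within the 95% interval of the reported value, 10 moved beyond it, and none with an unadjusted p under 0.05 changed sign. The trended and robust fit, the array weights, the replicate block and the use of all probe sets leave a gene's estimate unchanged by construction. The arrays left out also set the width of the interval. The count of 3074 is therefore no measure of robustness. With 2 arrays a group, their number limits the precision.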

Other observations

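Other gene groups are given here against the 61.3% of brighter genes that were positive, and no member passed the adjusted threshold. The collagen genes, with a median level of 6.80, are the exception and are set against the 43.8% of dimmer genes. Cholesterol synthesis and uptake genes were positive in 14 of 19 cases (median 0.06, and 0.10 without CR-s replicate B). Fdps, which makes farnesyl diphosphate in that pathway, was at 10.40 and 10.50 on the CR-l arrays and 10.41 and 10.44 on the CR-s arrays, against 10.53 and 10.60 on the Con-l arrays and 10.81 and 10.81 on the Con-s arrays, an interaction of 0.27 ± 0.09 (SE, 95% CI 0.06 to 0.48). Only the control groups were apart. Hsd17b7, an enzyme of the same pathway, was at 0.30 ± 0.10 (SE, 95% CI 0.06 to 0.53). Circadian clock genes were positive in 12 of 16 cases (median 0.05, and 0.02 without CR-s replicate B), with Nr1d2, a repressor of the clock loop, at 0.23 ± 0.09 and Tef, a clock output factor, at 0.19 ± 0.08 (both SE). Of 27 genes of monoamine and acetylcholine signalling, 18 were positive (median 0.09, but -0.02 on the A arrays and 0.15 on the B arrays), among them the muscarinic receptor gene Chrm3 at 0.27 and the histamine receptor gene Hrh1 at 0.28, or 0.17 without Con-l replicate B. The catalytic AMPK subunit gene Prkaa2, an energy sensor, was at 0.27 ± 0.10 (SE, 95% CI 0.03 to 0.51).

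Serpinh1, the collagen chaperone, was at 8.35 and 8.46 on the CR-l arrays and 8.68 and 8.65 on the CR-s arrays, against 9.20 and 9.22 on the Con-l arrays and 9.12 and 9.09 on the Con-s arrays. Leptin arrays were lower under restriction and higher under the normal diet, and the interaction was -0.37 ± 0.09 (SE, 95% CI -0.57 to -0.17). Collagen genes were negative in 21 of 25 cases with a median of -0.07, which ran from -0.13 without CR-s replicate A to -0.02 without CR-s replicate B. Among mural cell genes, Rgs5 of pericytes was at -0.23 and Tagln of smooth muscle at -0.25, while 6 of 12 members were positive. Microglia and macrophage genes had members of either sign, with the scavenger receptor gene Cd163 at 0.52 ± 0.18 and the integrin gene Itgam at -0.36 ± 0.14 (both SE). Cd163 was at 0.33 without CR-l replicate B and Itgam at -0.23 without CR-s replicate B. Pvalb, the calcium-binding protein of fast-spiking neurons, was at -0.42 ± 0.15 (SE, 95% CI -0.77 to -0.08), and Grm3, a metabotropic glutamate receptor gene also found in astrocytes, at -0.40 ± 0.12 (SE, 95% CI -0.67 to -0.12).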
